A study of Saccharomyces cerevisiae with 14 samples.

Results

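The change of messenger RNA levels from glucose to ethanol was measured in Saccharomyces cerevisiae cells that lack the FPT1 gene. The 8 samples were chosen by their labels, 4 deletion samples in the rich glucose medium YEPD and 4 after 2 h in ethanol at 30 °C, out of 14 samples in all. The other 6 are wild-type BY4741 samples, 3 per medium, which serve here to show where the deletion differs. All 14 are MATa haploids with the alleles his3Δ1 leu2Δ0 met15Δ0 ura3Δ0, and the deletion cells carry in addition fpt1::KanMX, a drug resistance cassette in place of FPT1. Deletion replicates 1 to 3 are strain NKI5633 and replicate 4 is strain NKI5620 in each medium, so the deletion rests on 2 strain names, and the glucose cells were in mid-log growth when the ethanol cells were moved. Stranded libraries of polyadenylated RNA were read as 65-base single reads, and each gene has a deposited value in FPKM, the fragments of that gene corrected for its length and for the total mapped in its library. FPKM is a level relative to the other messengers of a library and gives no amount per cell. Its sum differs between libraries, so it is not itself a share. Less RNA per cell and fewer cells in a given state cannot be told apart in such bulk samples.

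Budding yeast ferments glucose to ethanol and, once glucose is gone, takes the ethanol up again and respires it. The switch needs enzymes that turn ethanol into acetyl-CoA, the tricarboxylic acid cycle and respiratory chain that burn it, and the glyoxylate cycle and gluconeogenesis that build sugar from it, all of which glucose represses. In glucose the kinase Snf1 is held inactive and Mig1 represses genes, while protein kinase A keeps ribosome production high. Fpt1 is known to sit at tRNA genes. These are transcribed by RNA polymerase III, which Maf1 shuts down when growth conditions worsen. The tRNAs themselves are not measured by polyadenylated RNA libraries.

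The promoters of 6 genes on which the results below turn are shown first, 200 bases each from the RefSeq annotation of assembly R64, read 5′ to 3′ on the gene's own strand. They were picked to show, for the main groups that moved, short motifs known to be bound by or tied to regulators of the shift. In each window the capitals mark matches, on either strand, only to the motifs named for that gene. Matches to motifs named for another gene stay in lower case, such as a CCAAT in the GPH1 window and an AGGGG in the INH1 window. No window overlaps a coding region. In the promoter of the ethanol-oxidising dehydrogenase ADH2 (chrXIII:874526-874725, minus strand) the capitals are the carbon source response element (the letters CCNNT directly followed by NNNCCG), bound by Cat8 and Sip4, and the Adr1 core TTGGAG in both orientations. In that of PCK1, the first committed enzyme of gluconeogenesis (chrXI:630659-630858, plus strand), they are 2 carbon source response elements.
ADH2 promoter window: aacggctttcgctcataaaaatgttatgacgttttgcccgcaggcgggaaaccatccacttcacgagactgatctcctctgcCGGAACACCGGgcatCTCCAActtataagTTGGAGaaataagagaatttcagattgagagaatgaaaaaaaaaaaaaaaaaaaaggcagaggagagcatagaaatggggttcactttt
PCK1 promoter window: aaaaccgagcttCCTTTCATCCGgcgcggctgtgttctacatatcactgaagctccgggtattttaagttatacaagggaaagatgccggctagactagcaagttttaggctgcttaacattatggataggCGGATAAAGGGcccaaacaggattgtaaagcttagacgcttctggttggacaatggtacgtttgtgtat
In the promoter of INH1, the inhibitor of the mitochondrial ATP synthase (chrIV:134811-135010, plus strand), the capitals are the CCAAT box bound by the Hap2/3/4/5 complex. In that of glycogen phosphorylase, GPH1 (chrXVI:860875-861074, plus strand), they are the stress response element AGGGG bound by Msn2 and Msn4.
INH1 promoter window: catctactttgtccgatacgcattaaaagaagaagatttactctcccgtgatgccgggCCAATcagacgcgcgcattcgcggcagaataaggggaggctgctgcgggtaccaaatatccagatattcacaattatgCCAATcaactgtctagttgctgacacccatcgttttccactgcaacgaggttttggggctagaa
GPH1 promoter window: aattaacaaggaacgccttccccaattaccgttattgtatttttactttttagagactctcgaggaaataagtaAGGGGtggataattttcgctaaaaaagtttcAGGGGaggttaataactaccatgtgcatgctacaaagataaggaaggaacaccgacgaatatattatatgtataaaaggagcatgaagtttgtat
In the promoters of the RNA helicase gene DBP2 (chrXIV:413349-413548, plus strand) and of RPA135, the second-largest subunit of RNA polymerase I (chrXVI:581268-581467, minus strand), the capitals are the PAC element GATGAG and the RRPE element AAAAATTTT, both found at genes of ribosome assembly. The RRPE matches of RPA135 overlap each other, since this motif is nearly its own reverse complement, and so do its PAC matches.
DBP2 promoter window: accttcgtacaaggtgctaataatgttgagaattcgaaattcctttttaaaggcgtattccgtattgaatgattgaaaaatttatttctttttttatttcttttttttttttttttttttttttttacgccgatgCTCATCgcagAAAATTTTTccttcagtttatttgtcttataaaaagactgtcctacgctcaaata
RPA135 promoter window: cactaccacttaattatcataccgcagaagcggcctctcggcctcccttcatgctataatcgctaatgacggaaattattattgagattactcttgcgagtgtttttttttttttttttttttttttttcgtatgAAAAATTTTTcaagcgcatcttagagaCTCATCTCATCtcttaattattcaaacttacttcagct
A match is a string of letters and does not show that a factor binds there, and how common each is among all promoters is given with the gene groups below.

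The libraries met their labels. FPT1 was listed at 0 in 4 of the 8 deletion libraries and at no more than 0.412 FPKM in the rest, against group means of 52.1 and 148 FPKM in wild-type glucose and ethanol. LEU2, MET17 and URA3 were at 0 in all 8. The 7 MATa-specific genes summed to 2396 to 2803 FPKM in glucose and 2170 to 3478 in ethanol. The 4 MATα-specific genes summed to 29.4 to 33.2 and 37.2 to 43.0 FPKM, most of it the agglutinin gene SAG1. Summed FPKM of the deletion libraries ran from 1649739 to 1816778 in glucose and from 1873282 to 2027946 in ethanol, without overlap. Their medians were 50.8 to 54.0 FPKM in glucose and 59.6 to 62.8 in ethanol, so values ran higher in ethanol across the table. They had 356 to 458 genes at 0, and the depth in reads is unknown. Replicates are described as biological in the series text. Separate cultures are not mentioned in the labels, so how much of the spread behind the p-values is technical is unknown.

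Most genes differed in level between glucose and ethanol. No label names a glucose sample that was moved or timed like the ethanol samples. Ethanol, the loss of glucose, the move and the time in the new medium therefore cannot be told apart. Limma on log2(FPKM + 1) called 4672 of 6267 genes tested at an adjusted p under 0.05, which is 74.5% of them, 2939 higher (46.9%) and 1733 lower (27.7%). A change of at least 1 on the log2 scale was found for 1584 of the called genes (25.3% of all), 1090 higher (17.4%) and 494 lower (7.88%). Higher calls made up 62.9% of the called genes as deposited, 48.7% (2295 higher, 2421 lower) when libraries were scaled to the same median and 45.8% (2171 higher, 2565 lower) after quantile normalization. The median change of all genes was 0.19, and gene groups are read against it. Their counts of called genes are likewise to be read beside the 46.9% of all genes called higher and the 27.7% called lower. In 4346 genes (69.3%) the 4 ethanol libraries did not overlap the 4 glucose libraries, 2737 with ethanol above (43.7%) and 1609 with ethanol below (25.7%).

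**Figure D1:**
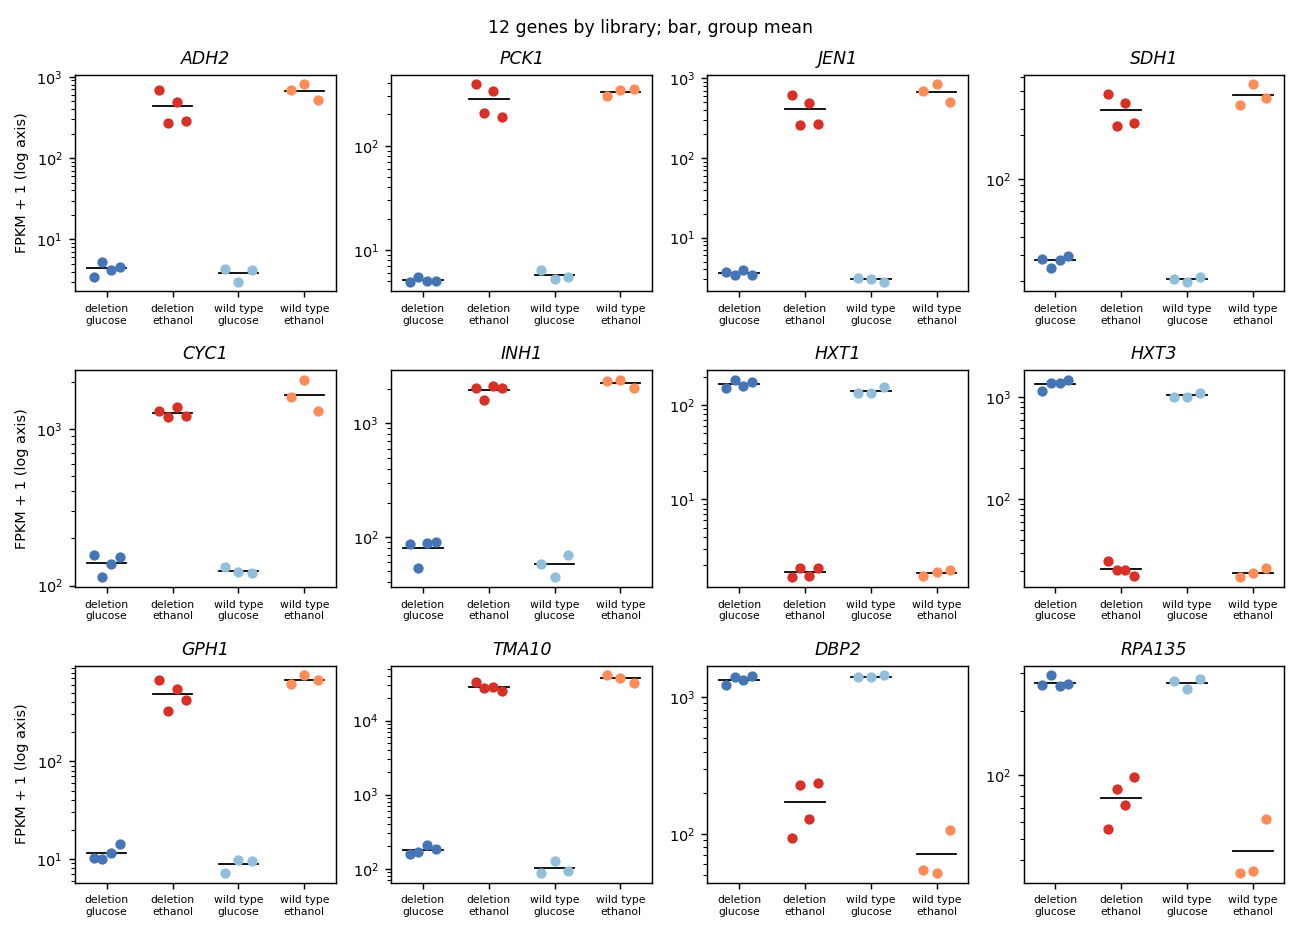
FPKM + 1 on a log axis for 12 genes in each library of the 4 groups, with a bar at the group mean. In the deletion ADH2 went from 2.49 to 4.27 FPKM in glucose to 271 to 677 in ethanol, HXT1 went from 149.6 to 183 FPKM to under 0.9, and the ethanol libraries of ADH2, PCK1 and JEN1 are more spread than those of HXT1 and HXT3.

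Genes for oxidising ethanol were among those that rose most. ADH2 (YMR303C, chromosome XIII, 873291 to 874337, minus strand), which turns ethanol into acetaldehyde, stood at 2.49, 4.27, 3.21 and 3.57 FPKM in glucose replicates 1 to 4 and at 677, 271, 493 and 287 FPKM in ethanol replicates 1 to 4. The groups lay far apart, and ethanol replicates 1 and 3 were above replicates 2 and 4. On the log2 scale ADH2 rose by 6.54 ± 0.26 (SE; limma adjusted p = 9.5e-11). The aldehyde dehydrogenase ALD4 of mitochondria, which carries the next step to acetate, rose by 4.05 ± 0.18 from 46.8 to 64.7 FPKM in glucose to 721 to 1160 in ethanol. ACS1, which makes acetyl-CoA from acetate, rose by 4.25 ± 0.24 to 112 to 255 FPKM. Of the 9 genes of ethanol and acetate use 7 rose and ALD5, a minor mitochondrial form, fell by 1.03, with a median of 2.47 against 0.19 for all genes. ACS2, the acetyl-CoA synthetase that also works in glucose, differed by -0.05 ± 0.05 (limma adjusted p = 0.37).

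Gluconeogenesis and the glyoxylate cycle, by which cells build sugar from acetyl-CoA, rose together. PCK1 (YKR097W, chromosome XI, 631152 to 632801, plus strand) stood at 3.99, 4.54, 4.11 and 4.06 FPKM in glucose and at 387, 205, 332 and 186 in ethanol, with no overlap and again with replicates 1 and 3 on top. It rose by 5.68 ± 0.19 (limma adjusted p = 2.1e-11). Fructose-1,6-bisphosphatase, FBP1, which bypasses the irreversible step of phosphofructokinase, went from 2.04, 2.87, 2.42 and 3.33 FPKM to 328, 135, 222.5 and 143 and rose by 5.75 ± 0.26. All ethanol values of FBP1 exceeded the highest glucose value many times over. The glyoxylate cycle genes ICL1 and MLS1, isocitrate lyase and malate synthase, rose by 2.18 ± 0.18 and 3.07 ± 0.19, and MLS1 reached 10.8 to 21.1 FPKM from 0.512 to 1.07. Citrate synthase of peroxisomes, CIT2, rose by 3.51 ± 0.16. Of 10 genes 9 rose, with a median of 3.04, and the pyruvate carboxylase PYC2 fell by 0.57.

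Carriers that bring carboxylic acids into the cell or acetyl groups into mitochondria behaved in the same direction. JEN1, the lactate and pyruvate carrier (chromosome XI, 22234 to 24084, plus strand), stood at 2.65, 2.42, 2.93 and 2.39 FPKM in glucose and at 614, 257, 496 and 265 in ethanol. Its 4 ethanol libraries fell into a higher and a lower pair, both far above glucose, and it rose by 6.73 ± 0.24 (limma adjusted p = 4.3e-11). The acetate carrier ADY2 rose by 5.71 ± 0.35, its relative ATO2 by 4.30 ± 0.30 and the carnitine carrier of mitochondria CRC1 by 5.21 ± 0.20. SFC1, which exchanges succinate for fumarate, rose by 3.51 ± 0.34 to 8.25 to 29.8 FPKM from at most 0.729. Of 9 genes 8 rose, with a median of 3.54, and ATO3, known as an ammonium exporter, fell by 0.95. YAT1, an outer carnitine acetyltransferase of mitochondria, was 1 of 2 genes that passed from under 2 FPKM in every glucose library to at least 20 in every ethanol library, at 1.18 to 1.94 and 26.2 to 34.3 FPKM.

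The carbon source response element shown for ADH2 and PCK1 stood in the 500 bases before the coding start of 7 of the 10 genes of gluconeogenesis and the glyoxylate cycle (70%), in 4 of 9 carrier genes (44.4%) and in 3 of 9 genes of ethanol and acetate use (33.3%). Among all 5733 promoters it stood in 7.19%, and in 10.6% of those of genes called higher by at least 1. The Adr1 core TTGGAG was found in 18.8% of all promoters and in 2 of 9 genes of ethanol and acetate use.

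The tricarboxylic acid cycle, which burns acetyl-CoA in mitochondria, rose almost as a whole. SDH1, the flavoprotein subunit of succinate dehydrogenase, stood at 27.4, 23.6, 27.0 and 28.7 FPKM in glucose and at 382, 228, 330 and 239 in ethanol. The groups did not overlap, and it rose by 3.39 ± 0.15 (limma adjusted p = 2.4e-10). Citrate synthase CIT1 rose by 3.23 ± 0.12, from 87.0 to 97.9 FPKM to 716 to 1015, and its minor relative CIT3 by 4.01 ± 0.26. Of 17 genes 16 rose, with a median of 2.12.

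Every nuclear gene of the respiratory chain lists rose. All 8 NADH and lactate dehydrogenase genes did, with a median of 2.88, among them the internal NADH dehydrogenase NDI1 by 2.79 ± 0.11, the glycerol-3-phosphate dehydrogenase GUT2 by 2.97 ± 0.11 and cytochrome b2, CYB2, by 4.42 ± 0.29. The 11 genes of the cytochrome bc1 complex and cytochrome c rose with a median of 2.42. Cytochrome c, CYC1, stood at 156, 112, 136 and 151 FPKM in glucose and at 1306, 1198, 1380 and 1209 in ethanol. Its ethanol values lay close together, and it rose by 3.20 ± 0.13. The 10 nuclear genes of cytochrome c oxidase, which hands electrons to oxygen, rose with a median of 2.08. The small subunit gene COX26 led them at 5.47 ± 0.24, from 14.6 to 18.7 FPKM to 572 to 1181.

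The mitochondrial ATP synthase and its regulators followed. INH1 (chromosome IV, 135179 to 135436, plus strand) stood at 86.1, 51.9, 87.6 and 88.9 FPKM in glucose and at 2060, 1602, 2123 and 2034 in ethanol. Replicate 2 was the lowest in both media, and INH1 rose by 4.64 ± 0.17 (limma adjusted p = 5.4e-11). STF1 and STF2, other genes tied to the enzyme, rose by 4.25 ± 0.17 and 3.12 ± 0.16, and STF2 became 1 of the 10 most abundant messengers at a mean of 12347 FPKM. All 17 genes of the list rose, with a median of 1.81, and their summed share of FPKM went from 0.488% ± 0.0523 (SD, n = 4) to 2.06% ± 0.219 (SD, n = 4). The list holds regulators such as INH1 along with subunits, so this share is not that of the enzyme alone. The CCAAT box stood upstream of all 17, of 62.9% of all promoters and of 65.9% of those of genes called higher by at least 1. It is thus a common string in this genome. Its share was 88.2% in the tricarboxylic acid cycle list, 80% in cytochrome c oxidase and 63.8% in the mitochondrial ribosome.

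The supply side of the mitochondrion moved less. All 69 proteins of the mitochondrial ribosome rose, with a median of 1.22, from 0.42 to 2.14, and MRPL28 led at 2.14 ± 0.07. Their share of FPKM went from 0.760% ± 0.0203 to 1.69% ± 0.142 (SD, n = 4 each). Of 28 genes of protein import 22 rose, with a median of 0.59, although only 13 were called higher after quantile normalization. Small chaperones of the space between the membranes led, TIM9 by 1.36 ± 0.12 and TIM10 by 1.24 ± 0.08. Of 17 genes of coenzyme Q and heme synthesis 14 rose and 3 fell, with a median of 0.57. The hydroxylase gene CAT5, of coenzyme Q synthesis, rose by 1.54 ± 0.10, while HEM13, the oxygen-dependent coproporphyrinogen oxidase of heme synthesis, fell by 1.52 ± 0.11 and HEM1, the first enzyme of that pathway, by 0.39 ± 0.08.

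Activators of growth without glucose mostly rose. Of 14 such genes 10 rose and 3 fell, with a median of 0.81. CAT8, the activator of gluconeogenic genes, stood at 0.903, 1.20, 1.54 and 0.944 FPKM in glucose and at 34.5, 19.7, 28.8 and 19.7 in ethanol, and rose by 3.61 ± 0.19. ADR1, the activator of ADH2 and of peroxisomal genes, rose by 2.54 ± 0.10 to 56.1 to 73.1 FPKM from 8.55 to 11.4. HAP4, the activating subunit of the CCAAT-binding complex, rose by 0.76 ± 0.08, from 140 to 154 FPKM to 217 to 293. In wild type HAP4 rose by 1.34, from 98.8 to 108 FPKM to 245 to 277. The difference of these responses, -0.58, was not called (limma adjusted p = 0.126). USV1, a zinc finger factor of respiratory growth, rose by 3.92 ± 0.17, and RSF2 and ERT1 fell by 0.45 and 0.57.

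Genes of the Snf1 complex, the yeast AMP-activated kinase, and of its regulators moved in both directions. REG2, a targeting subunit of the phosphatase Glc7, rose by 3.82 ± 0.15 from 10.9 to 16.7 FPKM to 160 to 246, and the beta subunit gene SIP2 by 1.95 ± 0.09. The beta subunit gene SIP1 and the activating kinase gene SAK1 fell by 0.55 ± 0.07 and 0.52 ± 0.07. Of 11 genes 8 were called higher and 3 lower, with a median of 0.24, but only 3 were called higher under either rescaling, 5 without ethanol replicate 3, and the median was -0.01 after quantile normalization. SNF1 itself, at 85.0 to 93.5 FPKM in glucose and 96.0 to 109 in ethanol, was called at 0.18 ± 0.06 (limma adjusted p = 0.020), stood at -0.03 and -0.05 under median scaling and quantile normalization, and lost the call without glucose replicate 4 or ethanol replicate 3 (adjusted p = 0.057 and 0.065).

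Glucose sensing genes changed in opposite directions. MTH1 and STD1 are related co-repressors that hold hexose transporter genes off when glucose is absent. MTH1 stood at 16.8, 19.9, 25.5 and 20.2 FPKM in glucose and at 226, 201, 194 and 189 in ethanol, and rose by 3.25 ± 0.12. STD1 stood at 147, 153, 148 and 137 FPKM in glucose and at 28.5, 28.4, 24.0 and 24.6 in ethanol, and fell by 2.43 ± 0.08. The groups of both genes lay far apart, and the ethanol libraries of each were close to one another. The high-affinity sensor gene SNF3 rose by 1.44 ± 0.10 and the low-affinity sensor gene RGT2 fell by 0.98 ± 0.10. The repressor genes MIG2 and MIG3 fell by 3.33 ± 0.15 and 2.05 ± 0.15, while MIG1 rose by 0.64 ± 0.12. Among the 13 genes 4 rose and 8 fell, and the median was -0.34.

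Hexose transporters were exchanged. HXT1 (YHR094C, chromosome VIII, 290913 to 292625, minus strand), a low-affinity transporter, stood at 149.6, 183, 160 and 173 FPKM in glucose and at 0.501, 0.891, 0.550 and 0.884 in ethanol. It was the largest fall of all genes tested, at -6.62 ± 0.10 (limma adjusted p = 3.5e-14), and the only gene at 20 FPKM or more in every glucose library and under 2 in every ethanol library. HXT3, the other low-affinity transporter, fell by 6.01 ± 0.10, from 1142, 1367, 1356 and 1468 FPKM to 23.6, 19.4, 19.3 and 16.7. Its ethanol libraries did not show the split between replicates 1 and 3 and replicates 2 and 4 seen for ADH2. The high-affinity genes HXT7 and HXT6 rose by 5.99 ± 0.13 and 5.45 ± 0.19, with 485 to 578 and 129 to 191 FPKM in ethanol, but they are nearly identical in sequence and how reads were divided between them is uncertain. HXT2, HXT10 and HXT5 rose by 2.06, 3.19 and 1.76, HXT4, HXT8 and GAL2 were not called at 0.25, 0.18 and -0.03, and 6 of the 17 genes of the list were too low to be tested. Of the 11 tested 6 rose and 2 fell.

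Genes for other sugars rose, while the labels name no sugar other than the glucose of YEPD. Invertase, SUC2, which splits sucrose, stood at 83.2, 86.1, 89.9 and 99.3 FPKM in glucose and at 2293, 2082, 2295 and 2285 in ethanol, and rose by 4.63 ± 0.09. Its ethanol libraries were within a narrow band. The maltose activator gene MAL33 rose by 4.07 ± 0.11 and the maltase gene MAL12 by 4.68 ± 0.17, from 0.431 to 1.34 FPKM to 33.8 to 49.8, the other gene besides YAT1 to pass from under 2 to at least 20 FPKM in all libraries. MAL12 has a near-identical copy, MAL32, and its own share of the reads is uncertain. Of 13 genes 11 rose, with a median of 1.77.

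Protein kinase A and Ras genes did not move as a group. Of 16 genes 6 rose and 7 fell, with a median of -0.14. The catalytic subunit gene TPK2 rose by 1.06 ± 0.12, while the catalytic subunit gene TPK3 fell by 0.79 ± 0.08. The inhibitory subunit gene BCY1 rose by 0.77 ± 0.07, RAS2 rose by 0.83 ± 0.09 and RAS1 fell by 0.46 ± 0.06. SCH9, a kinase of the TOR pathway that promotes ribosome production, fell by 0.60 ± 0.07.

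Glycolysis also split, and it split between isoenzymes. Of 21 genes 8 rose and 8 fell. The median was 0.09, and -0.12 under median scaling. The group took 4.61% ± 0.238 of FPKM in glucose and 4.14% ± 0.319 in ethanol (SD, n = 4 each). Pyruvate kinase CDC19, the last step, fell by 1.02 ± 0.07, the phosphofructokinase genes PFK1 and PFK2 by 0.67 and 0.81, pyruvate decarboxylase PDC1 by 0.97 ± 0.08 and the enolase ENO2 by 1.41 ± 0.07. TDH3, a major glyceraldehyde-3-phosphate dehydrogenase, and the fermentative alcohol dehydrogenase ADH1 were not called, at 0.09 and -0.11.

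In 21 pairs of related genes the ratio of the first form to the second was compared over the 4 + 4 libraries. The second is the form that was more abundant in glucose or is known from low oxygen, except in the pair GSY2 and GSY1. The first form gained in 17 pairs without overlap of the media, lost in 2, and the media overlapped in 2. Each of the 19 has an exact two-sided permutation p of 0.0286, the smallest that 70 splits allow, and 0.0316 after Benjamini-Hochberg adjustment over the 21 pairs. The pairs were chosen with earlier results of these data known, and the order of most was set by abundance in glucose. Among all single genes 69.3% did not overlap between the media, and no such share was computed for other gene ratios. The count of 19 is therefore a description. Hexokinase HXK1 stood at 36.1, 34.2, 45.9 and 69.8 FPKM in glucose and at 5714, 4706, 5337 and 5304 in ethanol, while HXK2, which also takes part in glucose repression, went from 1797 to 1976 FPKM to 2600 to 3022. The log2 ratio of HXK1 to HXK2 accordingly went from -5.38 ± 0.42 to 0.89 ± 0.21 (SD, n = 4 each), and HXK1 was the more abundant form in all 4 ethanol libraries and in no glucose library.

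The ratio of HXT7 to HXT3 moved most, from -7.31 ± 0.35 to 4.69 ± 0.10 on the log2 scale (SD, n = 4 each). That of ADH2 to ADH1 moved by 6.64, but ADH1 was still the more abundant form in ethanol, at a log2 ratio of -4.09. RGI2 gained over RGI1 by 5.89, ACS1 over ACS2 by 4.30, the respiratory pyruvate carrier subunit MPC3 over MPC2 by 4.20, and the ADP/ATP carrier PET9 over AAC3, the form of low oxygen, by 4.10. TDH1 gained over TDH3 by 3.93, pyruvate kinase PYK2 over CDC19 by 3.53, phosphoglucomutase PGM2 over PGM1 by 3.51 and ENO1 over ENO2 by 2.78. The first form lost in the glycogen synthases GSY2 and GSY1 (-1.71), where GSY2 was the more abundant in all 4 glucose libraries and the scarcer form therefore gained. It also lost in the eIF5A forms ANB1 and HYP2 (-2.40). This pair was ordered by abundance in glucose, although ANB1, like AAC3, is known from low oxygen. With ANB1 second the pair would count among the gains. The 2 cytochrome c genes CYC1 and CYC7 kept overlapping ratios, a difference of 0.27 (exact p = 0.171, adjusted p = 0.171), as did COX5A and COX5B at -0.28 (exact p = 0.0571, adjusted p = 0.06). Pairs such as TDH1 and TDH3, ENO1 and ENO2, and ADH1 and ADH2 are close in sequence, and how reads were divided between copies is not given.

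**Figure D2:**
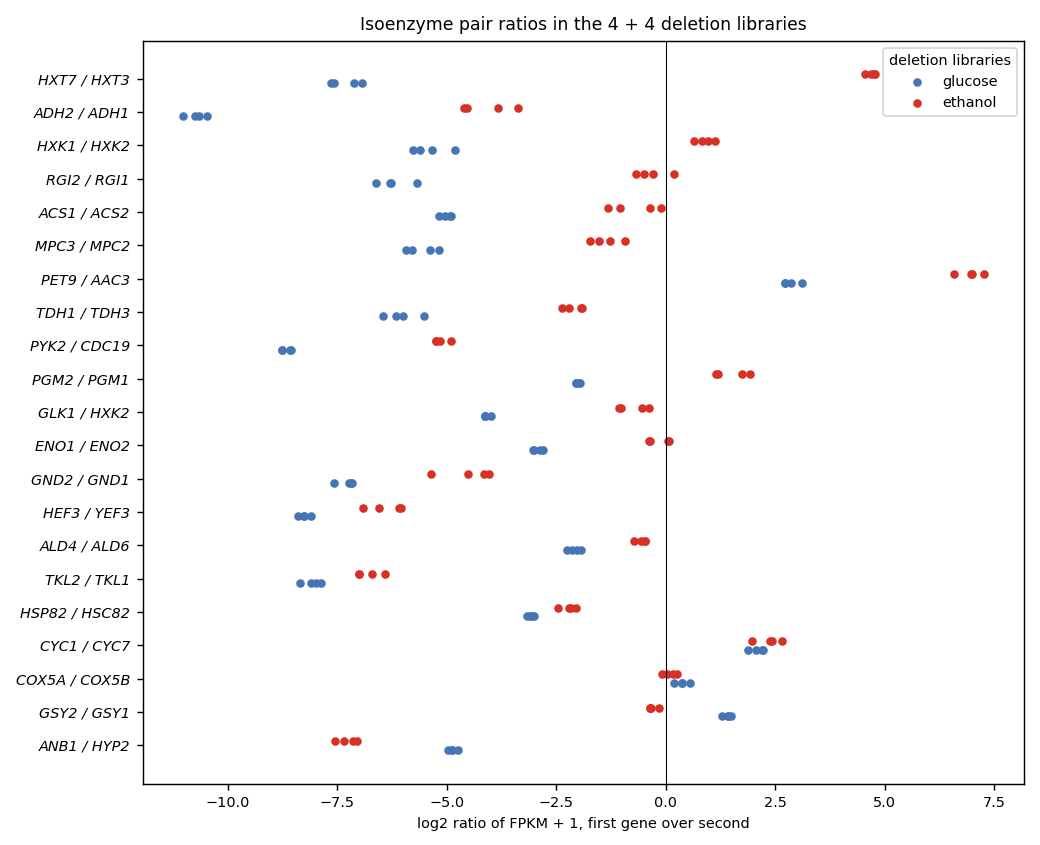
Log2 ratio of FPKM + 1 of 21 gene pairs in the 4 glucose and 4 ethanol deletion libraries, 1 point per library, ordered by the change. HXT7/HXT3 moved from -7.31 to 4.69, and glucose and ethanol points overlap in 2 pairs, CYC1/CYC7 and COX5A/COX5B.

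Reserve carbohydrates, glycogen and trehalose, which yeast stores as growth slows, are made and broken down by genes that rose almost without exception. GPH1 (chromosome XVI, 861306 to 864014, plus strand) stood at 9.29, 8.95, 10.6 and 13.2 FPKM in glucose and at 671, 320, 541 and 420 in ethanol. The groups lay far apart, and it rose by 5.37 ± 0.19 (limma adjusted p = 4.2e-11). The synthase gene GSY1 and the branching enzyme gene GLC3 rose by 4.85 ± 0.13 and 4.49 ± 0.17, so genes of synthesis and breakdown moved the same way. Of 21 genes 20 rose, with a median of 1.74, and PGM1 fell by 0.24. The stress response element shown for GPH1 stood upstream of 16 of the 21 (76.2%), against 34.3% of all promoters and 52% of those of genes called higher by at least 1.

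Stress genes rose in most cases. TMA10, a protein found with ribosomes in stressed cells (YLR327C, chromosome XII, 783127 to 783387, minus strand), stood at 158, 169, 206.5 and 185.5 FPKM in glucose and at 33105, 27376, 28232 and 25262 in ethanol. It rose by 7.30 ± 0.13 (limma adjusted p = 5.0e-14) and went from rank 1319 to rank 3 among all genes by mean FPKM. HSP12, a small membrane-stabilising protein, rose by 4.77 ± 0.44 and SPG4, a gene of stationary phase, by 6.21 ± 0.41, both with a wide spread in glucose, 19.8 to 67.0 and 1.71 to 7.74 FPKM. Of 39 genes 29 rose and 5 fell, with a median of 1.02, and 9 were called lower after quantile normalization. Those that fell were the plasma membrane protein gene HSP30 by 1.75, the Hsp70 gene SSA2 by 1.34, the peroxiredoxin AHP1 by 0.46, the stress activator MSN2 by 0.51, and SSA3. The stress response element stood upstream of 28 of the 39 (71.8%).

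Peroxisomes, where yeast oxidises fatty acids, gained as well. POX1, the first enzyme of that pathway, rose by 3.59 ± 0.28, from 0.404 to 0.732 FPKM to 12.7 to 26.0, and the last, the thiolase POT1, by 3.20 ± 0.29, while no label mentions a fatty acid. Of 13 oxidation genes 12 rose, with a median of 1.99, and of 28 peroxins, which build the organelle, 26 rose with a median of 0.76 and PEX31 fell by 0.50. The Adr1 core in its form TTGGGG stood upstream of 7 of the 13 oxidation genes (53.8%) and of 9.84% of all promoters. Of 27 genes of autophagy and vacuolar proteases 25 rose and none fell, with a median of 1.03. ATG34, a receptor that brings an enzyme to the vacuole, rose by 3.12 ± 0.20 and the vacuolar aminopeptidase APE1 by 2.32 ± 0.09. Of 33 proteasome genes 25 were called higher, with a median of 0.38, but 3 after quantile normalization, where the median was -0.06.

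Genes that build ribosomes fell. DBP2 (YNL112W, chromosome XIV, 413639 to 416281, plus strand), an RNA helicase of ribosome assembly and RNA decay, stood at 1225, 1397, 1327 and 1421 FPKM in glucose and at 92.9, 226, 128 and 235 in ethanol. No library overlapped, ethanol replicates 2 and 4 kept the higher levels, and it fell by 3.07 ± 0.27 (limma adjusted p = 1.9e-07). The helicase DHR2 fell by 2.38 ± 0.22, the nucleolar protein NSR1 by 1.83 ± 0.19 and the rRNA methyltransferase NOP1 by 1.41 ± 0.17. Of 126 assembly factors 122 fell and none rose, with a median of -1.36, and their share of FPKM went from 2.26% ± 0.0993 to 0.898% ± 0.123 (SD, n = 4 each).

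The genes of the ribosomal proteins, the most abundant group of the glucose libraries, fell by less per gene and by more in sum. They took 39.5%, 37.9%, 39.0% and 39.9% of FPKM in the glucose libraries and 20.3%, 26.6%, 20.8% and 27.5% in the ethanol libraries. Replicates 2 and 4 again stood nearer to glucose. Among the 137 genes 116 fell and only 2 rose. Their median was -0.70, from -1.40 for RPL9A to 0.69 for its copy RPL9B. RPL3, a large-subunit protein with a single gene, went from 8153, 8038, 7803 and 7667 FPKM to 3942, 5379, 4089 and 5269, and fell by 0.78 ± 0.15 (limma adjusted p = 3.4e-04). Most of these genes have a near-identical copy, so values of single copies, RPL9A and RPL9B among them, are uncertain.

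The PAC and RRPE elements differed in frequency among these groups. PAC stood upstream of 111 of 126 assembly factors (88.1%) and 12 of 16 RNA polymerase I genes (75%), but of 30 of 137 ribosomal protein genes (21.9%) and 27.9% of all promoters. RRPE stood upstream of 80 assembly factors (63.5%), 7 RNA polymerase I genes (43.8%), 13 ribosomal protein genes (9.49%) and 9.82% of all promoters. Among all genes called lower by at least 1 the shares were 61.4% and 39.4%. The elements were not limited to assembly factors. PAC and RRPE stood upstream of 34.2% and 65.8% of translation factor genes and of 31.6% and 57.9% of cytosolic tRNA synthetase genes. The shares were 65.9% and 22.7% for tRNA modification and processing, and 52.4% and 33.3% for RNA polymerase III.

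RNA polymerase I, which makes ribosomal RNA, fell in most of its genes. RPA135 (YPR010C, chromosome XVI, 577585 to 581196, minus strand) stood at 262, 292, 261 and 266 FPKM in glucose and at 54.7, 84.9, 71.4 and 96.5 in ethanol. Its groups did not overlap, and it fell by 1.83 ± 0.18 (limma adjusted p = 5.7e-07). The subunit gene RPA49 and the core factor gene RRN11 fell by 1.70 ± 0.19 and 1.73 ± 0.14. Among 16 genes there were 11 falls and 3 rises, at a median of -1.03, and RRN10, of the upstream activation factor, rose by 0.46 ± 0.10.

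RNA polymerase III, the system at which Fpt1 is found, was divided. Its largest subunit gene, RPO31, stood at 110, 123, 120 and 113 FPKM in glucose and at 53.8, 57.1, 53.0 and 59.1 in ethanol, and fell by 1.05 ± 0.10 (limma adjusted p = 3.6e-07). The subunit genes RPC82 and RPC53 fell by 1.28 ± 0.08 and 1.28 ± 0.13. The repressor gene MAF1 went the other way, from 156, 159, 168 and 145 FPKM to 412, 346, 370 and 264, and rose by 1.13 ± 0.11 (limma adjusted p = 5.8e-07). BRF1, an initiation factor subunit, was not called, at 0.06 ± 0.08 (limma adjusted p = 0.50). Among the genes of TFIIIC, the factor that binds tRNA gene promoters, TFC3 rose by 0.56 ± 0.08. Among the 21 genes, the repressor gene MAF1 included, 11 fell and 4 rose, and the median was -0.20. It was -0.41 under median scaling and -0.575 after quantile normalization.

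The rest of the translation apparatus also fell. All 19 cytosolic tRNA synthetase genes did, with a median of -0.84, and the methionyl enzyme MES1 fell most, by 1.34 ± 0.11. Of 44 genes of tRNA modification and processing 31 fell and 8 rose, the median being -0.74, and 5 were called higher under either rescaling. The pseudouridine synthase PUS1 fell by 1.83 ± 0.16, while RPM2, the protein of mitochondrial RNase P, rose by 2.14 ± 0.14. Of 38 translation factors 31 fell and 2 rose, with a median of -0.57, TIF4631, the scaffold eIF4G, by 1.33 ± 0.09 and the elongation factor TEF4 by 1.13 ± 0.10. Among regulators of ribosome genes, the activators IFH1 and SFP1 fell by 1.33 ± 0.09 and 0.50 ± 0.08 and the co-repressor CRF1, which displaces Ifh1, rose by 2.16 ± 0.24. The repressors split, TOD6, which binds the PAC element, falling by 2.24 ± 0.17 and STB3, which binds the RRPE element, rising by 0.39 ± 0.08.

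**Figure D3:**
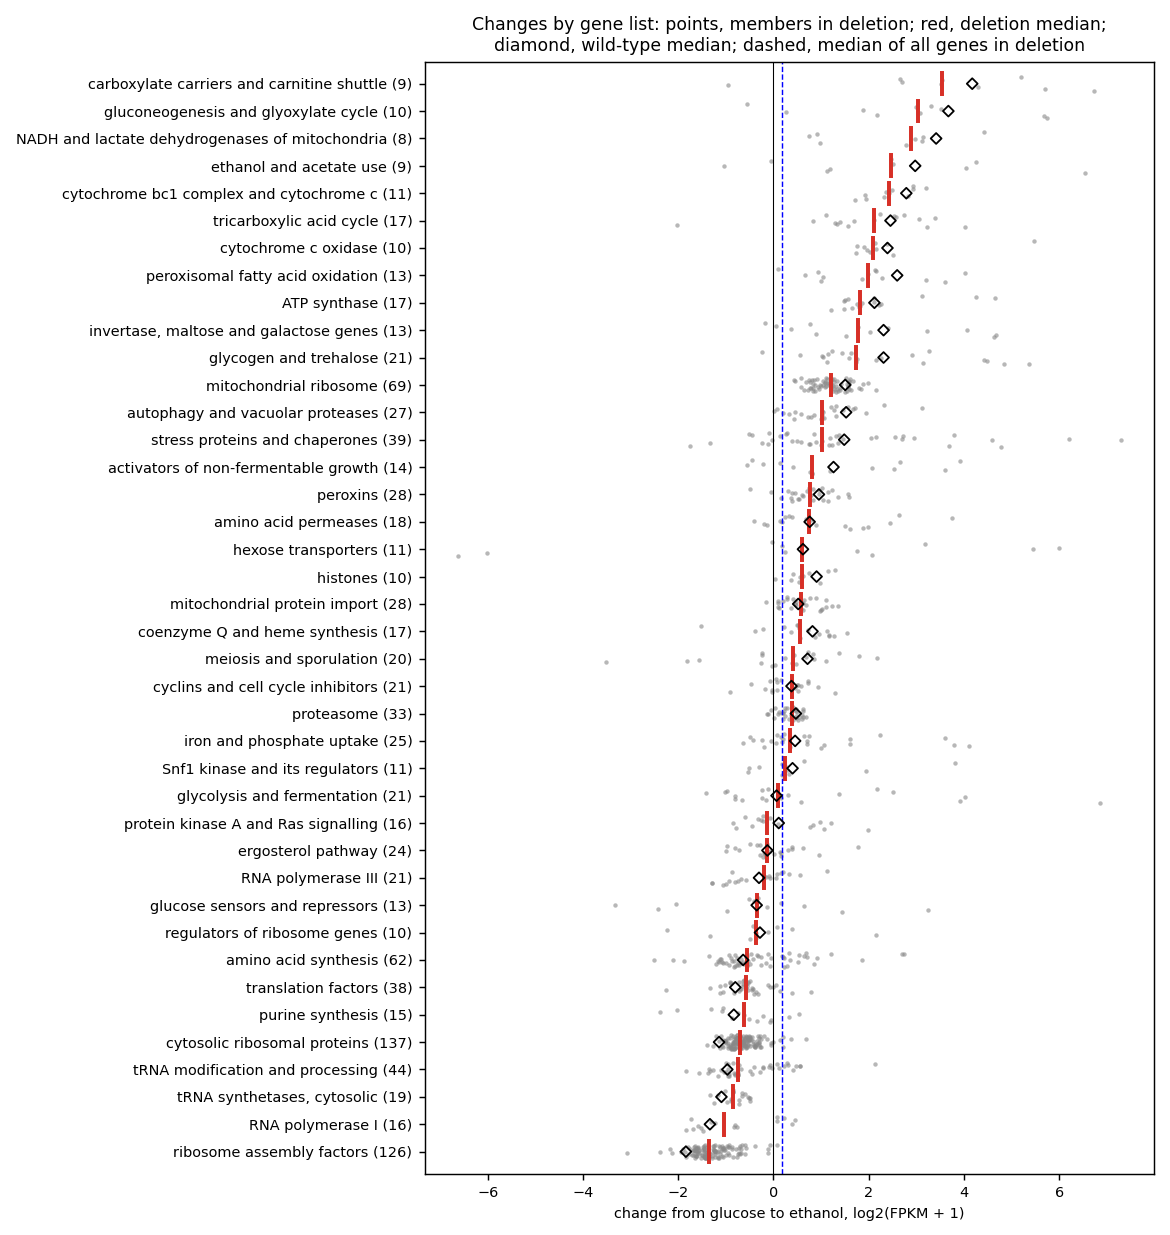
Change from glucose to ethanol on the log2(FPKM + 1) scale in the deletion for 40 gene lists, ordered by median, with grey points for members, a red bar for the deletion median, an open diamond for the wild-type median and a dashed line at the median of all genes, 0.19. Carriers of carboxylates lead at 3.54 and ribosome assembly factors are lowest at -1.36. Under a rescaling of libraries the medians of the proteasome, Snf1 and glycolysis lists change sign.

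Biosynthesis fell in part. Of 62 genes of amino acid synthesis 40 fell and 15 rose (9 after quantile normalization), with a median of -0.55. In the leucine pathway LEU9 fell by 2.52 ± 0.20, LEU1 by 2.11 ± 0.05 and the transaminase BAT1 by 1.88 ± 0.12, while GDH2, the glutamate dehydrogenase that releases ammonium, rose by 2.73 ± 0.10. Among 15 purine genes 11 fell and 2 rose, the median being -0.61, led by the IMP dehydrogenases IMD2 and IMD4 at -2.39 ± 0.12 and -2.02 ± 0.14. Of 24 ergosterol genes 8 rose and 12 fell as deposited, and 3 rose and 19 fell after quantile normalization, from ERG11, a demethylase, at -0.99 ± 0.08 to the scaffold protein gene ERG28 at 1.77 ± 0.08. Amino acid permease genes rose in 13 of 18 cases and fell in 3, with a median of 0.74, led by the proline permease PUT4 at 3.75 ± 0.30.

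Other groups moved less or in a few members. Of all genes tested 46.9% were called higher and 27.7% lower. The counts of cyclins, of iron and phosphate uptake and of meiosis genes are not far from these shares. Of 10 histone genes 9 rose, with a median of 0.60, HTA1 by 0.97 ± 0.11, and their share of FPKM went from 1.70% ± 0.0859 to 2.29% ± 0.170 (SD, n = 4 each). Of 21 cyclins and cell cycle inhibitors 12 rose (7 after quantile normalization) and 3 fell, the G1 cyclin CLN1 rising by 1.29 ± 0.08 and CLN3, which starts the cycle, and the G1 inhibitor FAR1 falling by 0.92 ± 0.11 and 0.48 ± 0.12. Of 25 genes of iron and phosphate uptake 15 rose and 4 fell, with a median of 0.35, led by the cell wall mannoproteins of iron uptake FIT2 and FIT3 at 4.10 ± 0.11 and 3.79 ± 0.11. The sodium-phosphate carrier PHO89 rose by 3.61 ± 0.19, and the regulator genes AFT2 and PHO4 fell by 0.42 and 0.48. Of 20 meiosis genes tested 11 rose and 4 fell, SPO19 by 3.52 ± 0.16, but the master regulator genes IME1 and IME2 were not called, at -0.03 and 0.04.

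The most abundant messengers of the ethanol libraries included genes of the cell wall and the ribosome. The cell wall protein gene CWP2 ranked first by mean FPKM, at 35030 to 41595, and rose by 0.77 ± 0.11. SPO24 was second, at 26732 to 38392 FPKM from 5245 to 7514 in glucose, a rise of 2.39 ± 0.17, followed by TMA10 and by the cell wall gene CCW12, which was not called at 0.04 ± 0.10. The ribosomal protein gene RPS31 fell from rank 1 to rank 5 (-0.62 ± 0.14), and RPS27B and RPS28A remained among the top 10. Their falls of 0.39 and 0.50 (limma adjusted p = 0.024 and 0.030) were both lost without glucose replicate 3 and without ethanol replicate 1 or 3. RPS27B also lost its call without glucose replicate 1 and RPS28A without glucose replicate 4, and over these omissions the adjusted p was 0.051 to 0.105.

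Beyond the lists, the largest rise was that of RGI2, a protein of energy metabolism in respiratory growth (chromosome IX, 247902 to 248396, minus strand). It stood at 2.81, 1.64, 3.25 and 4.96 FPKM in glucose and at 4915, 2374, 4634 and 2008 in ethanol, and rose by 9.66 ± 0.36 (limma adjusted p = 5.0e-11). YFR052C-A, a reading frame without a row in the annotation, rose by 7.06 ± 0.20 to 7913 to 9917 FPKM, and the uncharacterised gene YMR206W by 5.40 ± 0.16. Behind the hexose transporters the largest falls were BSC1 and PRM7 at -4.62 ± 0.15 and -4.41 ± 0.13, RRT5 at -4.01 ± 0.25, and YGR270C-A, which was listed at 0 in all 4 ethanol libraries and at 3.59 to 27.6 FPKM in glucose. YGR270C-A, YGR160W, YLR339C and YMR290W-A have no row in the annotation, and their glucose libraries are spread, from 17.5 to 76.6 FPKM for YGR160W. Frames without a row, YFR052C-A among them, have no coordinates here. Whether their reads belong to an overlapping or neighbouring gene was therefore not checked. Of 534 tested reading frames without a row 17.6% were called higher and 19.3% lower, against 49.6% and 28.4% of 5733 annotated genes.

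The 4 ethanol libraries did not lie equally far from glucose. On the first principal component of the 8 libraries, which held 84.1% of the variance, glucose libraries stood at -48.1 to -40.4 and ethanol replicates 1 to 4 at 54.1, 37.4, 48.0 and 34.3. Over the 16 gene lists with a median change of at least 1 in size, the list score (the mean log2(FPKM + 1) of its genes) lay farthest from glucose in replicate 1 for 15 lists and in replicate 3 for 1. It lay nearest in replicate 4 for 11 and in replicate 2 for 5. Replicate 4 is the only ethanol library of NKI5620, so strain and library cannot be told apart for it, and replicate 2 is NKI5633 like replicates 1 and 3. The ribosome assembly score was 7.77 to 7.87 in glucose and 6.21, 6.75, 6.44 and 6.78 in ethanol replicates 1 to 4, and that of glycogen and trehalose 4.52 to 4.64 and 7.16, 6.56, 6.96 and 6.60.

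Some genes varied less among the 4 ethanol libraries. SUC2, HXT3, HXT7, STD1 and HXK1 ran within 2082 to 2295, 16.7 to 23.6, 485 to 578, 24.0 to 28.5 and 4706 to 5714 FPKM in them. HXT7 kept the order of the principal component, replicate 1 highest and replicate 4 lowest, within its narrower range. RGI2, JEN1 and ADH2 ran within 2008 to 4915, 257 to 614 and 271 to 677. What sets the order of the libraries was not tested.

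**Figure D4:**
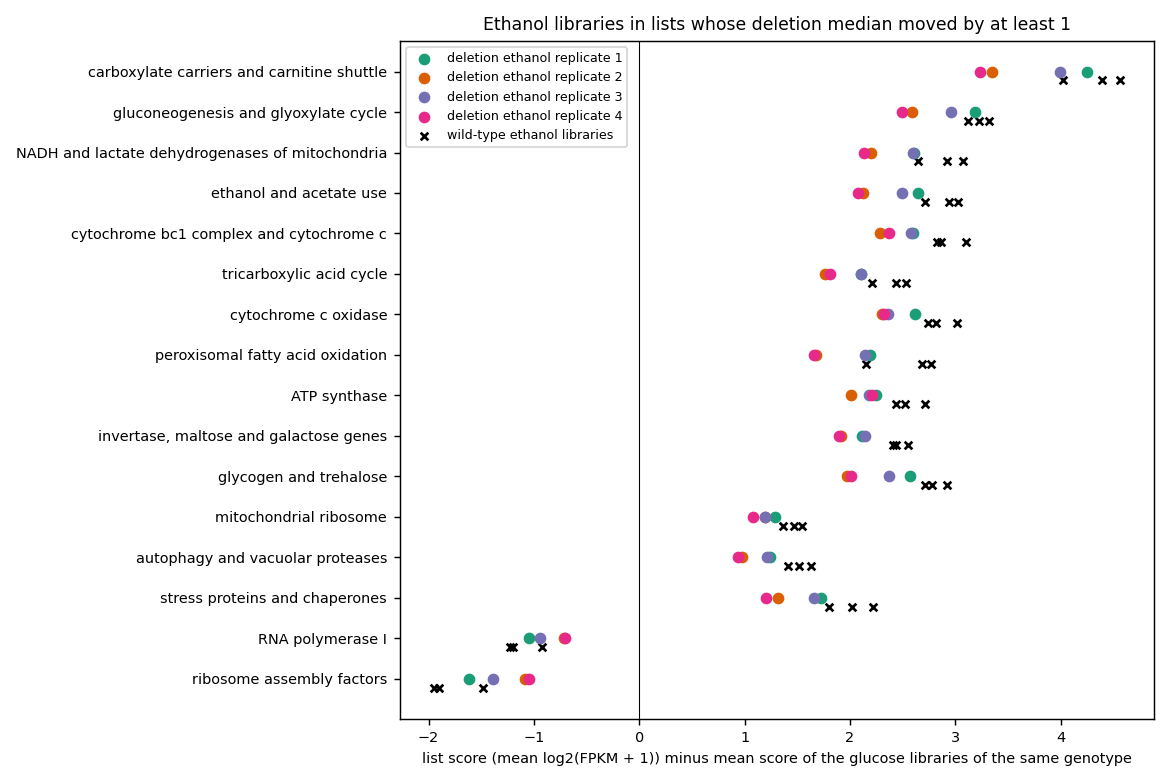
List scores of each ethanol library minus the mean of the glucose libraries of its genotype, on the log2(FPKM + 1) scale, for the 16 lists whose deletion median changed by at least 1, with a coloured point per deletion replicate and crosses for the 3 wild-type libraries. Replicate 1 lies farthest from 0 in 15 of 16 lists, and replicates 2 and 4 lie nearest.

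The deletion response was set beside that of wild type to see where it differs. Of the genes called in the deletion 4261 were called in wild type in the same direction, 91.2% of the deletion's calls and 90.3% of the 4718 calls in wild type, and none in the opposite direction. Wild type had calls in 75.3% of genes, 3163 higher (50.5%) and 1555 lower (24.8%). Across 6267 genes the changes had a Pearson correlation of 0.959 and a slope of 0.813, deletion on wild type, given as a description since genes are not independent replicates. Among the 4261 the change was smaller in the deletion for 3613. List medians were closer to 0 in the deletion for several groups, 3.54 against 4.17 for carriers, 1.74 against 2.31 for reserve carbohydrates, -0.70 against -1.14 for ribosomal proteins and -1.36 against -1.84 for assembly factors. The changes of all 4 deletion libraries were smaller than those of all 3 wild-type libraries in 11 of the 16 lists, but the ethanol scores themselves did not overlap between genotypes in only 1 of them. Glucose scores were higher in the deletion in some lists. They were 6.51 to 6.57 against 6.31 to 6.38 in wild type for the tricarboxylic acid cycle, and 4.52 to 4.64 against 4.32 to 4.39 for reserve carbohydrates. For assembly factors they overlapped, at 7.77 to 7.87 and 7.84 to 7.89. How much of the smaller change lies in the glucose level was not tested.

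Gene by gene the difference did not pass. Limma called 0 of 6267 genes (0%) for the difference of responses, with a lowest adjusted p of 0.079 and 1603 genes at an unadjusted p under 0.05. The 95% interval of a gene's difference reached, at the median, 0.30 to either side on the log2 scale, before any adjustment for the number of genes. The gene with the lowest p was FPT1, which is absent from the deletion (-1.39). Next was TMA10, whose rise was 1.21 smaller in the deletion (95% interval -1.63 to -0.79, limma adjusted p = 0.088), with 180 ± 21.2 FPKM in deletion glucose and 102 ± 20.8 in wild-type glucose, and 28494 ± 3318 and 37263 ± 4107 in ethanol (SD, n = 4 and 3). Then came the stress gene DDR2 at -1.59, RGI1 at -1.25, the autophagy gene ATG8 at -1.05, SRL3 at -0.71, COA4, of cytochrome oxidase assembly, at -0.66, the DNA repair glycosylase MAG1 at -0.64, HRT3 at -0.47 and MIX23 at -0.42 (limma adjusted p = 0.126 for each).

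This count turned on single libraries. Without deletion ethanol replicate 1, the one farthest from glucose, 844 genes were called, 838 of them with a smaller change in the deletion. Without wild-type ethanol replicate 3 the count was 654, of which 650 changed less in the deletion. Without wild-type glucose replicate 2 the only call was TMA10, at -1.37 (limma adjusted p = 0.0298). The slope of a deletion library's change on the mean change of wild type was 0.924, 0.753, 0.855 and 0.720 for replicates 1 to 4. MAF1 rose by 1.6 in wild type and 1.13 in the deletion, and RPA135 fell by 2.67 and 1.83, neither of them called for the difference. HXT1 and HXT3 fell by 6.62 and 6.01 in the deletion and by 6.40 and 5.76 in wild type.

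**Figure D5:**
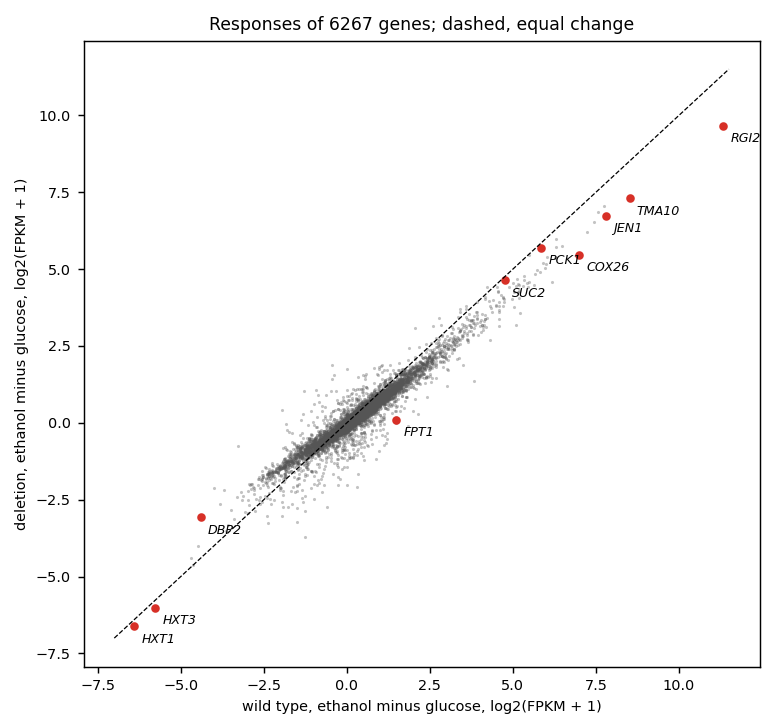
Change from glucose to ethanol of 6267 genes on the log2(FPKM + 1) scale, wild type on the horizontal and deletion on the vertical axis, with the line of equal change dashed and 10 genes named. The slope across genes is 0.813, RGI2 lies at 11.33 and 9.66, and no gene passed the test of the difference.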

How the data were processed

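Polyadenylated RNA of 14 yeast samples was measured, 8 of them FPT1 deletion samples. The authors deposited 1 table of FPKM values for 6664 genes, made from reads aligned to genome build sacCer3 with STAR 2.7.1a, per the submitters' processing notes. How FPKM were computed from the alignments (tool, annotation, filters, strand setting) is not given in the sources used here. FPKM keep no read depth, so counting intervals cannot be given.

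A gene was tested if 3 or more of the 14 samples reached 1 FPKM, which kept 6267 genes and left out 397. Log2(FPKM + 1) was fitted with limma 3.58.1 in R 4.3.3, 4 groups sharing 1 estimate of the spread with a mean-variance trend, and p-values were adjusted by the Benjamini-Hochberg method over all 6267 genes at a threshold of 0.05. Fold changes on this scale understate those of low genes. The fit was tested on simulated data. Groups came from the labels. The series text calls the replicates biological. Isoenzyme ratios were compared by exact permutation tests (scipy 1.17.1, Python 3.11.15). Promoters, coordinates and strands are those of the RefSeq annotation of R64, which has a row for 5989 of the genes.

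Named were FPT1, the 15 largest rises and falls without overlap, the leading 3 called members of each list with the largest one called the other way, both genes of each pair, the 10 most abundant genes in ethanol, the 10 lowest p-values for the difference from wild type, genes passing between under 2 and at least 20 FPKM, and 25 genes set by name. A further 33 genes, SNF1, SNF3, MIG1 and MSN2 among them, and the marker genes were added after their values were seen. The gene lists and pairs were chosen with earlier results of these data known. Alternatives were pseudocounts of 0.1 and 5, other filters, median scaling, quantile normalization, a replicate block, other variance settings and the omission of libraries. Every sample column of the table was used. A few single-gene results are not reported here.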

Additional observations from a re-analysis of the deposited data

Results flagged for a closer look

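Of 178 groups of 4 deletion libraries examined, 9 held a library set apart from the other 3 by more than Dixon's 95% limit for a group of that size, and chance alone flags about 1 group in 20. In glucose, replicate 2 had the lowest score of the cytochrome bc1 and cytochrome c genes, 7.293 against 7.544 to 7.566 on the log2(FPKM + 1) scale, and the highest RPA135 level, 292.2 FPKM against 261 to 266. Glucose replicate 4 had the lowest score of the protein kinase A and Ras genes, 5.801 against 5.952 to 5.960. Glucose replicate 1 had the highest score of amino acid synthesis, 7.903 against 7.786 to 7.805, and the lowest log2 ratio of GND2 to GND1, at -7.574. Glucose replicate 3 had the highest score of the 4 MATα-specific genes, 2.531 against 2.238 to 2.282, and the highest log2 ratio of GLK1 to HXK2, at -3.988.

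In ethanol, replicate 4 had the lowest score of the glucose sensors and repressors, 5.329 against 5.442 to 5.461. SUC2 was lowest in ethanol replicate 2, at 2082 FPKM against 2285 to 2295. Each of these libraries stayed on its own medium's side of the comparisons reported above.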

How the results depend on the processing

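The deletion response kept 4505 to 4736 calls over 12 other settings and 4476 to 4647 when a library was left out, and 231 of 240 named called genes were called in every setting. BAR1, GAL80, MF(ALPHA)1, PRE10, RPN2, RPS27B, RPS28A, SNF1 and TIM44 lost their call in at least 1. Signs were followed only for named genes called in at least 1 setting, without those named only as markers. Among these, median scaling turned the sign of SNF1 (-0.034), CCW12 (-0.169), HYP2 (-0.078) and HRT3 (-0.166). Quantile normalization turned that of SNF1 (-0.049), CCW12 (-0.266), HRT3 (-0.165), BAR1 (-0.026) and ADH1 (0.058). Without ethanol replicates 2 and 4, CCW12 came to -0.034 and HSC82 to 0.092, and without both NKI5620 libraries HSC82 came to 0.002. Leaving out 1 library moved CCW12 between -0.008 and 0.079.

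The 0 genes called for the difference from wild type ranged from 0 to 844 when 1 library was left out, with 654 without wild-type ethanol replicate 3. A pseudocount of 5, no filter on low values, no mean-variance trend and the omission of both NKI5620 libraries each gave 1 call, FPT1 itself, as did leaving out deletion ethanol replicate 4, and TMA10 was the 1 call without wild-type glucose replicate 2. The cause was not tested. Glucose and ethanol samples share replicate numbers, but same-numbered samples deviated together little (correlations of -0.08 to 0.17 in the deletion and -0.42 to -0.06 in wild type), and 2 of 7 glucose libraries correlated best with their own number. With a replicate block 4505 genes were called in the deletion and 0 for the difference, and SNF1, RPS27B, GAL80, RPN2 and TIM44 lost their call. FPKM give no read depth, so the precision of low genes rests on the spread between libraries.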

Other observations

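Genes near chromosome ends were looked at after the lists. The 158 tested annotated genes within 20 kb of an end had a median change of 0.50 in the deletion, and 52.5% were called higher and 18.4% lower. The 5575 genes farther in had a median of 0.20, with 49.5% higher and 28.7% lower. Genes near ends were the lower in glucose, at a median of 15.4 against 67.2 FPKM, and whether this level plays a part was not tested.

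Genes of mating type moved in both directions. Among MATa-specific genes the agglutinin subunit AGA2 and the gene ASG7 rose by 1.12 and 0.60, the receptor gene STE2 and the exporter gene STE6 fell by 0.88 and 1.02, and the pheromone genes MFA1 and MFA2 were not called. The alpha-cell receptor gene STE3 rose by 1.59, from 1.85 to 3.07 FPKM to 8.74 to 11.9. HIS3, of which the his3Δ1 allele is a partial deletion, stood at 87.3 to 104 FPKM in glucose and 51.0 to 77.4 in ethanol and fell by 0.57.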
